A study of Mus musculus with 12 samples.

Results

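Liver mRNA levels of 9 hepatocyte lineage transcription factors, Hnf4a, Cebpa, Cebpb, Foxa1, Foxa2, Foxa3, Onecut1, Nr5a2 and Prox1, were compared between wild type mice and mice lacking Siah2, a ubiquitin ligase, in both sexes. The 9 were taken by name, and all of them were among the 23420 gene symbols of the count tables. The 12 mice, on a C57BL/6 background and about 20 weeks of age, had normal chow and were sampled at ZT10, where ZT counts hours from lights on. There were 3 mice in each of 4 groups: wild type females (1089, 1090 and 1091), Siah2 KO females (1070, 1104 and 1105), wild type males (1055, 1086 and 1087) and Siah2 KO males (1075, 1076 and 1081). The KO is germline, so that every cell of the liver lacked the same gene, and both lines were bred from homozygotes of a heterozygote intercross. The sample labels speak of RNA pooled from 3 mice, whereas the study describes individual livers, and its description was used. The comparisons asked whether loss of SIAH2 altered these factors in either sex and whether they differed between the sexes.

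Hepatocytes are specified and kept in their identity by a small network of transcription factors that bind one another's promoters and the enhancers of secreted protein, metabolic and clotting genes. FOXA proteins open compacted chromatin ahead of other factors, HNF4A sustains most genes of the differentiated cell, and C/EBP proteins tie them to fasting, inflammation and regeneration. ONECUT1 and PROX1 act in the growth of the liver bud and in the choice between hepatocyte and bile duct, and NR5A2 governs bile acid and cholesterol genes.

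Foxa3 and Cebpb, whose levels stood furthest apart between the female groups, are shown with the 250 bases before their start sites, read 5′ to 3′ along the gene's own strand. The sequences are from RefSeq (GRCm38.p6), where all 9 genes were matched. Capitals mark TGACG, the core of the site bound by CREB, the factor that glucagon activates in fasting, or its reverse complement.
Foxa3, minus strand, chr7:19023540-19023789: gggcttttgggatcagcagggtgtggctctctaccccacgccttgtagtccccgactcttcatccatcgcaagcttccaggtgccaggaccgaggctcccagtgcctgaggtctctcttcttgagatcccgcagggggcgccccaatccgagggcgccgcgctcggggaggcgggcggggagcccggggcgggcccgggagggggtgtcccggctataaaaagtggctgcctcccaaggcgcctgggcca
Cebpb, plus strand, chr2:167688665-167688914: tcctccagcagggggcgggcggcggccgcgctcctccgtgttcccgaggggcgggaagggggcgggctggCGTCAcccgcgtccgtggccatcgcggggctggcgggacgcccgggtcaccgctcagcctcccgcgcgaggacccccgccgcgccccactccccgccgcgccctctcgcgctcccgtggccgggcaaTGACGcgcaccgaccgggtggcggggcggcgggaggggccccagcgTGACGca
The Cebpb window was 81.6% GC and held 3 such matches, at 180 to 176 bases upstream on the opposite strand and at 53 to 49 and 7 to 3 bases upstream on its own strand. TGACG occurred on either strand in 17.8% of 32851 promoter windows of this length. The Foxa3 window was 68.8% GC and held none of the 8 motifs searched. These were TGACG, the E-box CACGTG (6.02% of windows), TNGGTCA of REV-ERB and ROR (9.19%), the D-box TTATNNAA (11%), TTGCNNAA of C/EBP proteins (9.56%), TGTTTNC of FOXA proteins (17.8%), CAAAGTC of HNF4A (3.84%) and CAAGGNCA of NR5A2 (5.53%), read on both strands, with overlapping matches counted. In the 14 windows of the 9 genes, TGTTTNC was also met once each before Foxa1, Hnf4a and Prox1, CACGTG before Onecut1, TGACG before Onecut1, and TTGCNNAA before Nr5a2. A match here describes letters and is not evidence of binding. The gene bodies in this build lie at chr2:163506811-163572907 (Hnf4a, plus strand), chr7:35119293-35121928 (Cebpa, plus), chr2:167688915-167690432 (Cebpb, plus), chr12:57540628-57548029 (Foxa1, minus) and chr2:148042877-148046969 (Foxa2, minus). The others are at chr7:19013283-19023539 (Foxa3, minus), chr9:74861921-74889648 (Onecut1, plus), chr1:136842562-136960448 (Nr5a2, minus) and chr1:190118035-190170827 (Prox1, minus).

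Between 1293688 and 4056144 reads were counted per liver, and levels are given as CPM, the counts of a gene relative to the scaled library total. The kit reads 1 tag near the 3′ end of each transcript, so counts do not grow with transcript length and do not separate transcripts from alternative promoters. Siah2 tags remained in the KO livers, at 9.48 to 12.4 CPM in females against 12.1 to 16.8 in wild type females, and at 9.31 to 17.0 CPM in males against 16.7 to 27.0. Xist was at 70.2 to 112 CPM in females and at most 0.850 in males, and Ddx3y at 54.5 to 70.1 CPM in males and at most 0.715 in females. The Siah2 tags do not check the genotype, because the sources used here do not say which part of the gene was deleted. Markers of hepatocytes summed to between 25061 and 44112 CPM in every library, and those of pancreatic acinar cells to at most 3.93 CPM, with Cpa1, Prss2, Ctrb1 and Amy2b at 0. Wild type female 1091 was the highest of all livers in Cebpa and the lowest in Cebpb. It also weighed on the fit, in which the number of genes called between the female genotypes went from 0 to 936 when it was left out. Results that rest on it are therefore given with and without it.

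Of the FOXA genes, Foxa3, which supports the glucose and bile acid genes of the adult liver, differed most between groups. It was at 208, 125 and 177 CPM in wild type females and at 68.2, 58.8 and 36.7 CPM in Siah2 KO females. In males it was at 185, 153 and 128 CPM in the wild type and at 158, 139.8 and 227 CPM in the KO. The 3 Siah2 KO females were lower than every other library, while the male groups overlapped. The group means were 170.1 ± 42.3, 54.6 ± 16.2, 155 ± 28.6 and 175 ± 46.2 CPM (SD, n = 3) in wild type females, KO females, wild type males and KO males. In whole liver RNA, fewer cells of a type and less RNA per cell cannot be told apart from the level of 1 gene alone. Of other hepatocyte genes in the same females, the 10 hepatocyte markers summed to medians of 37074 CPM in the wild type and 34091 CPM in the KO, their median log2 fold change was −0.12, and that of Hnf4a was −0.13.

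Between female genotypes the Foxa3 difference was 3.07-fold, a log2 fold change of −1.62 (SE 0.29, 95% interval −2.27 to −0.96). Its adjusted p was 0.0793 by edgeR's quasi-likelihood test, the 28th smallest p of 9465 genes, and 0.000293 by DESeq2. edgeR called no gene in this comparison (0.00% of those tested), with 15.6% at an unadjusted p under 0.05, and DESeq2 called 3.70%. Without wild type female 1091 the log2 fold change was −1.59 and the adjusted p 0.00705. In males the log2 fold change of Foxa3 was 0.18 (SE 0.20, interval −0.25 to 0.61, edgeR adjusted p = 1.0). The difference between these effects, females minus males, was −1.79 (SE 0.37, interval −2.58 to −0.99), where edgeR gave an adjusted p of 0.0631 and DESeq2 one of 0.00180. Without female 1091 its edgeR adjusted p was 0.0119. edgeR called 0.255% of genes in that test and DESeq2 3.32%.

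By edgeR, Foxa3 passed the threshold between Siah2 KO females and Siah2 KO males, a comparison that shares the 3 KO females with the one above. It was 3.17-fold lower in females, a log2 fold change of −1.67 (SE 0.22, edgeR adjusted p = 0.000221, DESeq2 adjusted p = 4.49e-10), and it was called whichever of the 6 libraries was left out. That comparison had many calls, 11.5% of the genes tested and 5.78% in the direction of Foxa3. Between wild type females and males the log2 fold change of Foxa3 was 0.14 (interval −0.46 to 0.73, edgeR adjusted p = 0.856).

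**Figure D1:**
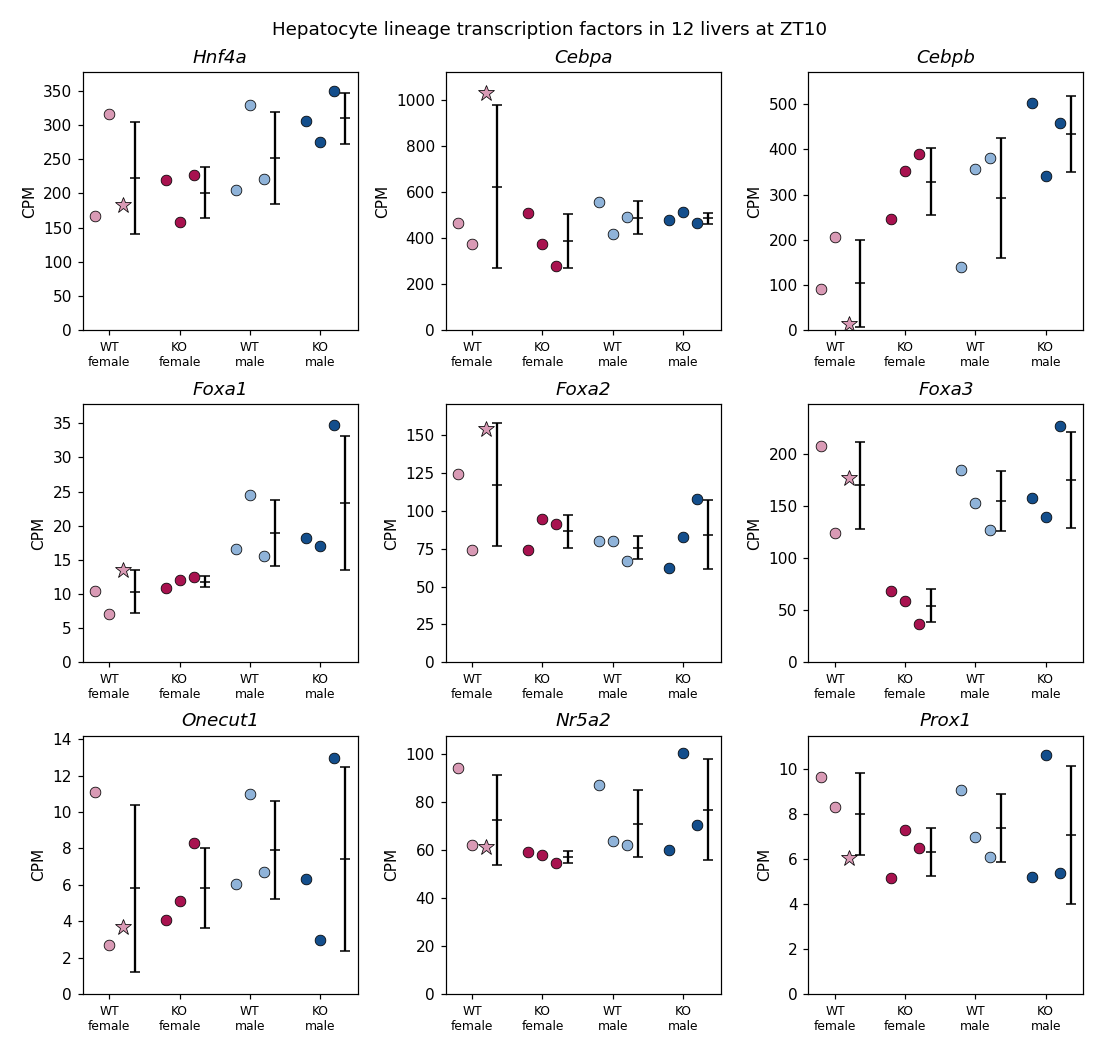
Level of each factor in CPM (vertical axes, linear, from 0) in the 12 livers, grouped by sex and genotype, with the mean and SD of each group beside its 3 points; the star is wild type female 1091. Foxa3 is between 36.7 and 68.2 CPM in Siah2 KO females and at 125 CPM or more in the other 9 livers, and Cebpb is lowest in wild type female 1091.

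Foxa2, which acts in bile acid handling and fasting metabolism, was at 124, 73.9 and 154 CPM in wild type females and at 73.9, 94.5 and 91.2 CPM in KO females. The male livers held 80.2, 79.9 and 66.9 CPM in the wild type and 62.2, 82.9 and 108 CPM in the KO. All 4 groups overlapped at neighbouring means, and no comparison passed the test. The log2 fold change in females was −0.42 (SE 0.28, interval −1.04 to 0.21, edgeR adjusted p = 0.523), −0.20 without female 1091, and in males 0.16 (SE 0.21, interval −0.28 to 0.61, edgeR adjusted p = 1.0).

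Foxa1, the FOXA factor with the fewest tags, was read 21 to 142 times per library. Females held 10.4, 7.12 and 13.5 CPM in the wild type and 10.9, 12 and 12.4 CPM in the KO. Males held 16.7, 24.5 and 15.6 CPM in the wild type and 18.2, 17.0 and 34.7 CPM in the KO. Every male was above every female, and in each sex the genotypes overlapped. The log2 fold change in females was 0.21, and 0.42 without female 1091 (edgeR adjusted p = 0.810 and 0.428). In the KO livers, Foxa1 was 2.03-fold lower in females (log2 fold change −1.02, SE 0.30, edgeR adjusted p = 0.0377, DESeq2 adjusted p = 0.0631), and −0.60 without KO male 1081 (edgeR adjusted p = 0.239). The edgeR call of Foxa1 was kept in 2 of the 6 fits that left out 1 library, with adjusted p-values of 0.0276 to 0.239. In the wild type the log2 fold change was −0.87 (SE 0.34, interval −1.64 to −0.11), with an unadjusted edgeR p of 0.0293 and an adjusted p of 0.263. edgeR called 1.39% of genes between wild type females and males, and 15.2% had an unadjusted p under 0.05.

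The balance within the FOXA family, which does not depend on the scaling of libraries, was examined after the levels were seen. Foxa3 made up 60.8%, 60.6% and 51.4% of the Foxa1, Foxa2 and Foxa3 tags in wild type females and 44.6%, 35.5% and 26.2% in Siah2 KO females. In males the share was 58.3% to 66.2% over the 6 livers. The KO females were the only libraries of the 12 in which Foxa2 tags outnumbered those of Foxa3. The widest exact 95% binomial interval, in KO female 1105, ran from 20.7% to 32.2% on 237 tags, and such intervals cover counting error only. The mean shares were 57.6 ± 5.35%, 35.4 ± 9.21%, 61.9 ± 3.25% and 62.0 ± 3.99% (SD, n = 3) in wild type females, KO females, wild type males and KO males. In the exact two-sided permutation test, run 8 times over both families without adjustment, which was chosen with these values known and cannot go below 0.1 with 3 against 3, p was 0.1 for KO females against wild type females and against KO males, and 1.0 between male genotypes.

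**Figure D2:**
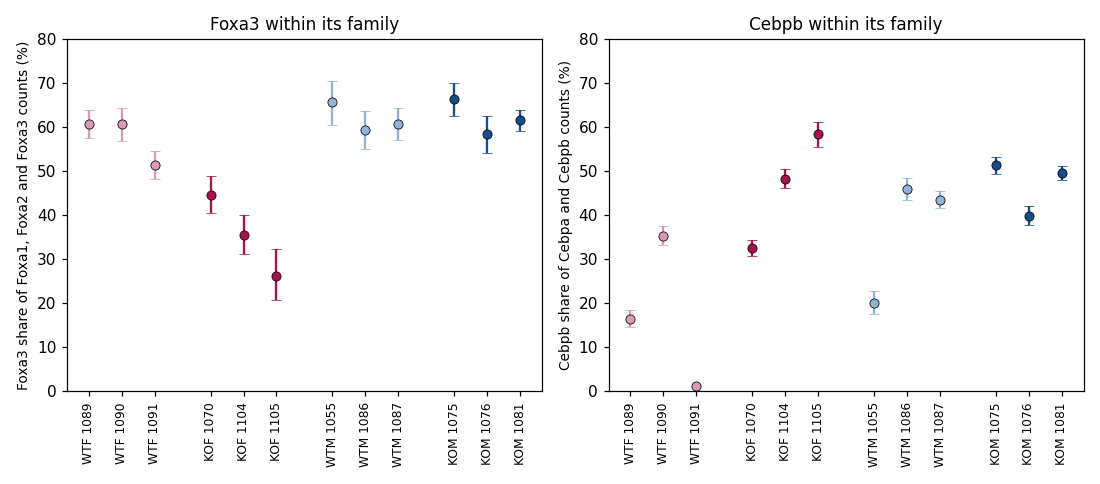
Share (%) of Foxa3 among the tags of the 3 FOXA genes, left, and of Cebpb among those of Cebpa and Cebpb, right, in each of the 12 libraries on the horizontal axis, with exact 95% binomial intervals as bars. Foxa3 holds 26.2% to 44.6% in Siah2 KO females and 51.4% to 66.2% elsewhere, and Cebpb holds 1.29% in wild type female 1091.

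Cebpb, the C/EBP factor induced by fasting signals, inflammation and partial hepatectomy, had the widest range of the 9 over the livers, 37.3-fold. That rank rested on wild type female 1091, at 13.5 CPM. The other livers ran from 91.6 to 503 CPM, a narrower range than the 6.19-fold of Foxa3. Cebpb was at 91.6, 206 and 13.5 CPM in wild type females and at 246, 351 and 389 CPM in Siah2 KO females. In males it was at 140.0, 356 and 381 CPM in the wild type and at 503, 340.0 and 459 CPM in the KO. The female groups did not overlap, with female 1091 lowest of all on 40 tags, and the male groups did overlap. The log2 fold change in females was 1.65 (SE 0.70, interval 0.10 to 3.20, unadjusted p = 0.0391, adjusted p = 0.288 by edgeR, adjusted p = 0.428 by DESeq2). It was 1.13 without wild type female 1091, where the edgeR adjusted p was 0.0486, and 2.64 without wild type female 1090. In males it was 0.55 (SE 0.28, interval −0.04 to 1.15, edgeR adjusted p = 1.0), and the females minus males difference was 1.09 (SE 0.82, interval −0.66 to 2.84, edgeR adjusted p = 0.617), or 0.57 without female 1091.

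Cebpa, which restrains proliferation and sustains gluconeogenic and urea cycle genes, was at 465, 377 and 1031 CPM in wild type females and at 509, 376 and 278 CPM in KO females. In males it was at 558, 417 and 494 CPM in the wild type and at 478, 513 and 468 CPM in the KO. Female 1091 was the highest library, and the groups overlapped in both sexes. The log2 fold change was −0.66 in females (SE 0.37, interval −1.48 to 0.17, edgeR adjusted p = 0.437), −0.12 without female 1091, and −0.01 in males (SE 0.15, interval −0.33 to 0.31). Cebpa tags were 76.4 times as many as those of Cebpb in female 1091, against 0.715 to 5.08 times in the other 11 livers. Cebpb made up 16.4%, 35.4% and 1.29% of the tags of the pair in wild type females and 32.6%, 48.3% and 58.3% in KO females. In males its share was 20.1% to 46.0% in the wild type and 39.9% to 51.3% in the KO, so that the groups overlapped in both sexes (exact permutation p = 0.2 in females and 0.4 in males).

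**Figure D3:**
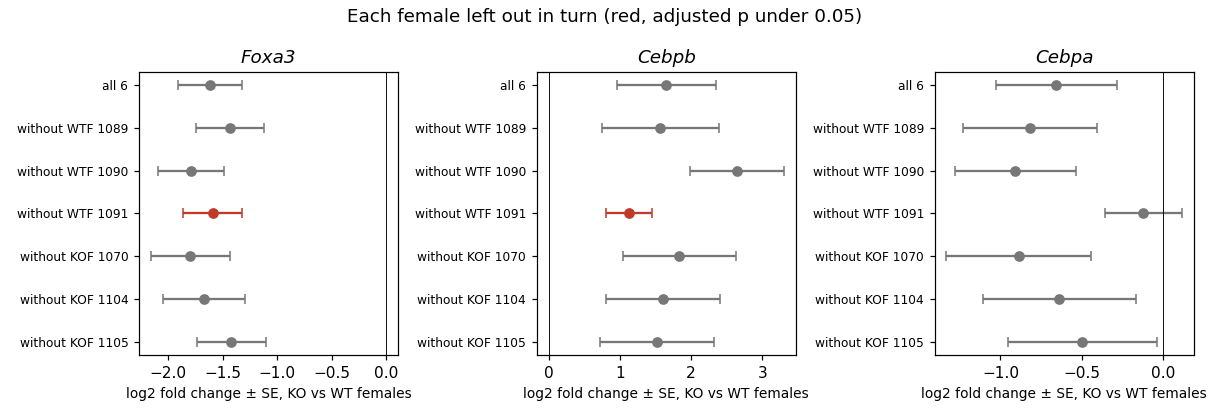
Log2 fold change of Foxa3, Cebpb and Cebpa between Siah2 KO and wild type females (horizontal axes, bars are ± SE from edgeR) with all 6 livers and with each left out in turn; red marks an adjusted p under 0.05. Foxa3 keeps values of −1.80 to −1.42, while Cebpb spans 1.13 to 2.64 and Cebpa reaches −0.12 without wild type female 1091.

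Of the nuclear receptors, Hnf4a, the central activator of the differentiated hepatocyte program, was at 167, 316 and 184 CPM in wild type females and at 219.8, 158 and 226 CPM in KO females. It was at 205, 329.6 and 221 CPM in wild type males and at 306, 275 and 349 CPM in KO males. The genotypes overlapped in each sex, with log2 fold changes of −0.13 in females (SE 0.30, interval −0.80 to 0.53, edgeR adjusted p = 0.878, −0.27 without female 1091) and 0.29 in males (SE 0.19, interval −0.11 to 0.69, edgeR adjusted p = 1.0). In the KO, every female was below every male, by a log2 fold change of −0.63 (SE 0.17, edgeR adjusted p = 0.0275, DESeq2 adjusted p = 0.00630). The edgeR call was kept in 2 of the 6 fits that left out 1 library, with adjusted p-values of 0.0186 to 0.150. In the wild type the sexes overlapped (log2 fold change −0.18, interval −0.87 to 0.51, edgeR adjusted p = 0.834, −0.056 without female 1091).

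Nr5a2, which with its partner Nr0b2 sets the transcription of bile acid enzymes, varied least, with a 1.84-fold range. It was at 94.4, 62.0 and 61.4 CPM in wild type females and at 59.2, 58.0 and 54.5 CPM in KO females. It was at 87.0, 63.9 and 62.0 CPM in wild type males and at 59.9, 100.3 and 70.3 CPM in KO males. The KO females lay below all the other livers, but the log2 fold change in females was −0.33 (SE 0.25, interval −0.89 to 0.23, edgeR adjusted p = 0.577), and against KO males it was −0.42 (SE 0.20, edgeR adjusted p = 0.192). Between the male genotypes it was 0.12 (SE 0.22, interval −0.35 to 0.60, edgeR adjusted p = 1.0).

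Onecut1, an activator of Hnf4a and Foxa2 in the fetal liver, and Prox1, a corepressor of HNF4A and NR5A2, were the least abundant. Onecut1 had 7 to 53 tags per library, at 2.67 to 11.1 CPM in wild type females, 4.08 to 8.29 in KO females, 6.05 to 11 in wild type males and 2.98 to 12.9 in KO males. Prox1 had 11 to 28 tags, at 6.07 to 9.66, 5.16 to 7.30, 6.11 to 9.08 and 5.21 to 10.6 CPM in the same order. The groups of both genes overlapped in each comparison. The log2 fold changes in females were −0.03 for Onecut1 (SE 0.58, interval −1.32 to 1.26) and −0.34 for Prox1 (SE 0.37, interval −1.16 to 0.48), and those in males −0.04 (SE 0.47, interval −1.06 to 0.98) and −0.06 (SE 0.41, interval −0.94 to 0.82), with edgeR adjusted p-values of 0.715 or more. A 2-fold lower level lay within the interval of Onecut1 in both sexes and of Prox1 in females, a 2-fold higher level within that of Onecut1 in females, and neither within that of Prox1 in males. Without female 1091 the log2 fold changes in females were −0.28 for Onecut1 and −0.52 for Prox1.

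Over the 9 factors, edgeR called none between the genotypes in females, in males or with the sexes combined, where it called 0.00%, 0.00% and 0.0111% of all genes tested. At an unadjusted p under 0.05 there were 2 in females (Foxa3 and Cebpb, background 15.6%), 0 in males (background 4.05%) and 0 with the sexes combined (background 5.65%). DESeq2 called Foxa3 in females and none in males or with the sexes combined, against backgrounds of 3.70%, 0.0370% and 0.00560%. In females 7 of the 9 log2 fold changes were negative, with a median of −0.33 beside −0.03 over all genes, and in males 3 were negative, with a median of 0.16 beside −0.01. The female groups did not overlap for 3 factors, namely Foxa3, Cebpb and Nr5a2, where 23.4% of all genes had groups apart. No factor had the male groups apart (background 8.93%).

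Between the sexes, the wild type livers had no called factor (background 1.39%), and 1, Foxa1, had an unadjusted p under 0.05 and groups apart (backgrounds 15.2% and 22.7%). In the KO livers 3 of the 9 were called, all lower in females, namely Foxa3, Hnf4a and Foxa1 (background 11.5%, 5.78% lower), and DESeq2 called Foxa3 and Hnf4a (background 9.91%). For 4 factors, these 3 and Nr5a2, every KO female was below every KO male (background 15.3% in this direction). The median log2 fold change was −0.42 in the KO, with 8 of 9 negative, and 0.04 in the wild type, with 4 of 9 negative, beside −0.00 and 0.05 over all genes. Sex coincides with the count table, so sex and any difference in how the 2 tables were made cannot be told apart.

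**Figure D4:**
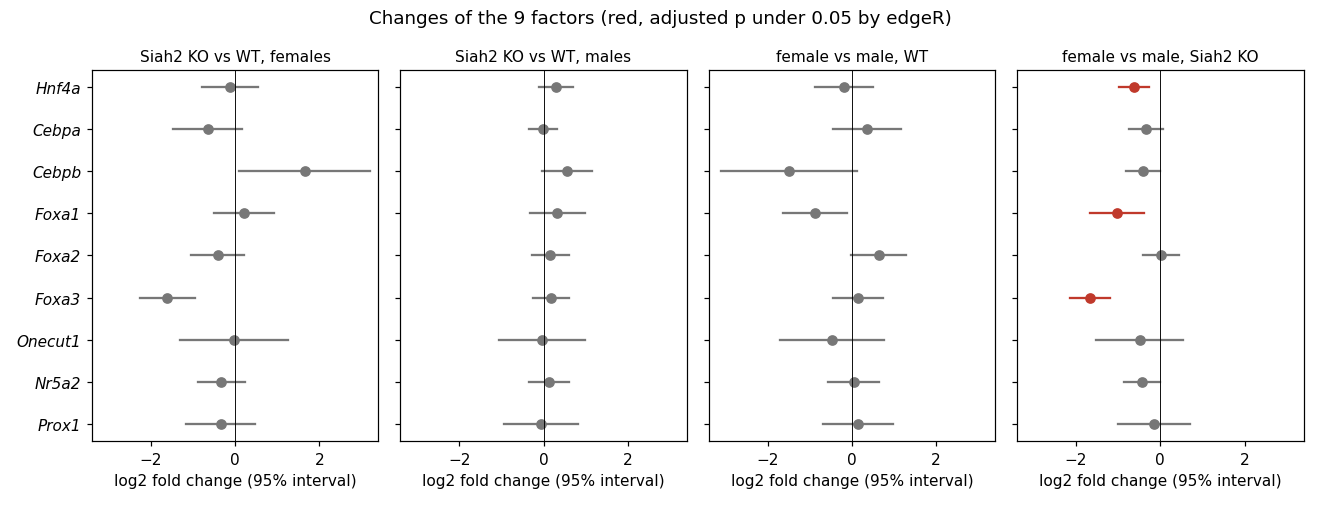
Log2 fold changes (horizontal axes) of the 9 factors with 95% intervals from edgeR, for Siah2 KO against wild type in females and in males and for females against males in each genotype; red marks an adjusted p under 0.05. The 3 red points, Foxa3, Hnf4a and Foxa1, are all in Siah2 KO females against Siah2 KO males, and the interval of Foxa3 between female genotypes is −2.27 to −0.96.

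Markers of other cells moved with some of these contrasts. Of all genes between female genotypes, 15.6% had an unadjusted edgeR p under 0.05, and DESeq2 called 3.70%. Between KO females and KO males edgeR called 11.5% of all genes and DESeq2 9.91%. Between female genotypes the summed hepatocyte markers were 30912 to 44112 CPM in the wild type and 30259 to 37308 in the KO, and of the 10 edgeR called none, with 1 higher and 1 lower at an unadjusted p under 0.05, and DESeq2 called 1 (Apob). The 10 markers of sinusoidal and lymphatic endothelium summed to 355 to 443 CPM in wild type females and 319 to 345 in KO females. Of the 9 tested between female genotypes, edgeR called none, DESeq2 called 1, and 2 were lower at an unadjusted edgeR p under 0.05. The 6 fat markers summed to 53.4 to 57.3 CPM in wild type females and 61.0 to 115 in KO females. That sum was mostly Fabp4, with 2580 counts over the 12 livers. Cidec had 169, Cfd 118, Lep 5, Adipoq 1 and Plin1 0. Of the 2 fat markers tested between female genotypes none was called, and 1 was higher in the KO at an unadjusted edgeR p under 0.05. The 11 Kupffer and immune markers present in the tables summed to 344 to 856 CPM in KO females and 101 to 207 CPM in KO males. edgeR and DESeq2 each called 5 of the 7 tested there, all higher in females. In the wild type they summed to 418 to 588 CPM in females and 78.8 to 591 CPM in males. Of the 8 tested there, edgeR called 2, both higher in females (background 1.39%), and DESeq2 called 2 (338 of 9037 genes). Between female genotypes neither tool called any of the 9 tested, and 2 were lower in the KO at an unadjusted edgeR p under 0.05. Of the red blood cell markers 6 were in the tables, with Hba-a1, Hba-a2, Hbb-b1 and Hbb-b2 at 0, and the sum was 21.8 to 25.2 CPM in wild type females, 8.39 to 20.1 in KO females, 83.9 to 104 in wild type males and 100.7 to 153 in KO males. Alas2, the single one tested, was called lower in females than in males in both genotypes by edgeR and DESeq2, and not between the genotypes. The 10 stellate markers summed to 387 to 470 CPM in wild type females, 257 to 407 in KO females and 232 to 280 in KO males. Of the 7 tested between the KO sexes edgeR called 1, a share near the 11.5% of all genes. The 10 bile duct markers summed to between 15.2 and 65.4 CPM over the 12 livers. The part of these cells in the levels of the factors was not tested.

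Other regulators of hepatocyte genes were read from lists. Of 22 further liver transcription factors, 19 were tested in females, none was called by edgeR, and 3 had an unadjusted p under 0.05, all lower in the KO, a share near the 15.6% of all genes. These were Atf5, a stress factor of mitochondria, with a log2 fold change of −1.50 (SE 0.34, edgeR adjusted p = 0.105, DESeq2 adjusted p = 0.00322), Nr1i2, the pregnane X receptor, at −1.05 (SE 0.27, edgeR adjusted p = 0.121, DESeq2 adjusted p = 0.0320), and Nr0b2, a corepressor of NR5A2 and HNF4A, at −1.95 (SE 0.65, edgeR adjusted p = 0.199). The median of the 19 was 0.08. In the KO livers 6 of 19 were called between the sexes by edgeR, where 11.5% of all genes were, with Ppargc1a (0.85) and Nr1h4 (0.59) higher in females and Onecut2 (−0.66), Xbp1 (−0.73), Zbtb20 (−0.71) and Nr0b2 (−1.82) lower. Of 8 C/EBP relatives and regulators, 7 were tested and none was called in any of the 6 comparisons by edgeR or DESeq2, with 1, Rfwd2, at an unadjusted p under 0.05 in females (log2 fold change 0.50, SE 0.21) and 1, Cebpg, between wild type females and males (−0.74, SE 0.28).

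Genes known as targets of the factors were spread in both directions in females, and edgeR called none of them. The counts below stand beside 15.6% of all genes at an unadjusted p under 0.05 and describe short lists that share members. Of 22 HNF4A targets, 2 were higher and 2 lower at an unadjusted p under 0.05, namely Pck1 (log2 fold change 1.59) and Tdo2 (0.85) against Cyp8b1 (−1.86) and Apob (−1.20). Of 14 C/EBP targets, Gys2, the liver glycogen synthase (1.25), Pck1 and Saa2 (1.41) were higher and Crp (−1.09) was lower. Of 10 tested FOXA targets only Pck1, the enzyme that commits carbon to gluconeogenesis, had such a p, and of 8 tested NR5A2 targets Cyp8b1 and Nr0b2 did. DESeq2 called Cyp8b1, Apob, Pck1, Gys2 and Crp, with adjusted p-values of 2.43e-06, 0.0468, 0.0179, 0.000198 and 0.0245. The medians were 0.19, 0.04, −0.14 and −0.17 for HNF4A, C/EBP, FOXA and NR5A2 targets, beside −0.03 for all genes, and Pck1, Cyp8b1 and others stand on more than 1 list.

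Between KO females and KO males, 6 of 22 HNF4A targets were called. Cyp7a1, the rate-limiting enzyme of bile acid synthesis (2.26), Slc10a1, the bile acid importer (1.02), F7 (0.68) and Apoa4 (1.19) were higher in females, and Ugt2b1 (−1.98) and Cyp8b1 (−1.54) were lower. Of 14 C/EBP targets, Saa2 (1.83), Saa1 (1.46) and Alb (0.60) were higher and Ugt2b1 was lower. DESeq2 did not call Saa2 or Saa1 (DESeq2 adjusted p = 0.0795 and 0.165). KO female 1070 held 132 CPM of Saa2 and 225 CPM of Saa1, against 30.2 to 52.9 and 58.0 to 75.2 CPM in the other KO females. Of 10 FOXA targets Cyp7a1, Alb and Igfbp1 (0.93) were higher, and of the NR5A2 targets named here Cyp7a1 was higher and Cyp8b1 and Nr0b2 were lower. Against the background of 11.5% these counts were read as a description of the lists alone.

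The genes whose log2 CPM most resembled each factor over the 12 livers were sought among the 6706 genes that averaged 10 CPM or more. The livers of a group and the scaling of each library are shared by the points, and r is a description. For Foxa3 Smagp was among them (r = 0.94), for Hnf4a they were Ppargc1b (0.94) and Larp1b (0.90), and for Cebpb Usp38 (0.97) and Ube2g1 (0.96). For Cebpa they were Psmc3 and Upb1 (both 0.94), for Foxa1 Ypel2 and 1600014C10Rik (both 0.91), for Foxa2 Orc3 (0.91) and Tlr12 (0.89), and for Nr5a2 Akap8l (0.88) and Zmynd8 (0.86). Leaving out female 1091 moved Tlr12 to 0.78 and Upb1 to 0.83, and left Smagp at 0.94. Onecut1 and Prox1, at means of 6.75 and 7.20 CPM, were below that cut of 10 CPM but were kept in the pairs of factors. Among the factors themselves the strongest pairs were Nr5a2 with Prox1 (r = 0.77, 0.76 without female 1091) and Cebpa with Cebpb (r = −0.76, −0.24 without female 1091). The Cebpa and Cebpb pair thus rested on that liver, in which Cebpa was highest and Cebpb lowest of the 12.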

How the data were processed

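Liver RNA of 12 mice was sequenced with the Lexogen QuantSeq 3′ kit. The authors trimmed, aligned and counted the reads, and deposited 1 table of raw read counts per gene symbol for each sex, with no normalization. The submitters' processing notes name mm10, STAR and DESeq, and the versions, the annotation and the use of strand in counting were not stated. The tables were joined by symbol, and the mouse number in a column's name gave its sample. The study's description mentions no molecular identifiers. The p-values rest on the spread between libraries, each taken as 1 mouse.

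Genes were tested with edgeR 4.0.16 in R 4.3.3 (two-sided quasi-likelihood F test after TMM scaling and filterByExpr, with Benjamini-Hochberg adjustment over all genes tested and a threshold of 0.05), and DESeq2 1.42.0 was the alternative that the study names. The sexes combined were fitted without a term for sex, and the females minus males effect came from a fit of all 4 groups. CPM used TMM-scaled totals, log2 CPM a prior count of 3. Further alternatives were limma 3.58.1 (voom, with and without weights for library quality), a term for sex, contrasts from the 4-group fit, RLE size factors, Rn45s left out, the filter dropped (1 count over the libraries) or raised (10 counts in each), and the omission of each library in turn. The edgeR fit was tested on simulated counts, with 200 genes changed by 2 on the log2 scale. It recovered from 56.0% of them (females minus males) to 94.5% (sexes combined). Of its calls, 4.06% (sexes combined) to 8.20% (females minus males) were genes that had not been changed. Figures and shares used Python 3.11.15, numpy 2.4.6, pandas 2.3.3, scipy 1.17.1 and matplotlib 3.10.9.

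The 9 factors and the lists were chosen with earlier results of these data known. Named genes were the 9 factors, up to 4 of each list per comparison with an unadjusted p under 0.05 and any called by edgeR or DESeq2, the 2 genes most correlated with each factor of at least 10 CPM, and Siah2, Xist and Ddx3y as checks. Only some of the genes this rule allows are named, and some are not reported here. The shares within families were added after the levels were seen. Positions and promoters came from RefSeq for GRCm38.p6, matched by symbol.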

Additional observations from a re-analysis of the deposited data

Results flagged for a closer look

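Over the 6 libraries of a genotype, the gap from the extreme library to its nearest neighbour, as a share of the whole range, was above Dixon's critical value of 0.625 in 3 of 18 tests, where chance flags about 1 in 20. Cebpa in wild type female 1091 was at 1031 CPM, against 377 to 558 CPM in the other 5 wild type livers, a gap of 0.724 of the range. Foxa1 in Siah2 KO male 1081 was at 34.7 CPM, against 10.9 to 18.2 CPM in the other 5 KO livers, a gap of 0.690. Nr5a2 in KO male 1076 was at 100.3 CPM, against 54.5 to 70.3 CPM, a gap of 0.654. In each of these tests the 6 libraries join both sexes.

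The log2 fold change of Foxa3 between Siah2 KO and wild type, females minus males, was estimated at −1.79 (SE 0.37). It passed the threshold by DESeq2 (adjusted p = 0.00180) and not by edgeR (adjusted p = 0.0631). With a library left out, edgeR called it in 1 of 12 fits.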

How the results depend on the processing

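The 9 factors were tested under 7 or 8 other settings per comparison besides leaving out each library. Between female genotypes, DESeq2 and the fit of all 4 groups called 1 factor each (Foxa3), and library quality weights and no filter on low counts called 2 each. Over all genes, DESeq2 called 303 of 8185, the 4-group fit 427 of 9806, quality weights 1058 of 9465 and no filter 484 of 17177. Leaving out a library between female genotypes gave 0 to 2 factors called, and 2 (Foxa3 and Cebpb) without wild type female 1091. That fit called 936 of 9709 genes. In the females minus males difference, DESeq2, quality weights, no filter and a minimum of 10 counts called 1, and leaving out a library gave 0 to 1. In the same order these settings called 260 of 7824, 558 of 9806, 325 of 17874 and 31 of 6634 genes. The fit without female 1091, which gave the 1, called 522 of 10127 genes. Between wild type females and males, no filter called 1 factor, and 536 of 16902 genes. Between KO females and KO males, the fit of all 4 groups called 1 in place of 3 (Foxa3), and leaving out a library gave 1 to 3, with 1 without KO female 1070, KO female 1104 or KO male 1081. The 4-group fit called 352 of 9806 genes, and those without 1070, 1104 and 1081 called 552 of 9355, 562 of 9418 and 486 of 9461. No factor was called between male genotypes or with the sexes combined under the alternatives run. The cause of these differences was not tested.

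Foxa3 kept its sign under every alternative in females, with log2 fold changes of −1.80 to −1.42 and edgeR adjusted p-values of 0.00705 to 0.351 when a library was left out. Small differences turned sign. Onecut1 was at 0.0087 by DESeq2 and 0.16 by limma-voom in females, at 0.075 by limma-voom with the sexes combined, and at −0.16 with quality weights and −0.015 without Rn45s in the females minus males difference. Cebpa was at 0.016 with no filter and 0.000965 with at least 10 counts in males, and at −0.11 with quality weights between the wild type sexes. With a library left out, the log2 fold changes that turned sign ranged as follows: between the genotypes in females Hnf4a −0.30 to 0.23 and Onecut1 −0.38 to 0.85, between the genotypes in males Cebpa −0.095 to 0.10, Foxa1 −0.084 to 0.58, Foxa2 −0.042 to 0.35, Foxa3 −0.039 to 0.33, Onecut1 −0.74 to 0.30, Nr5a2 −0.11 to 0.29 and Prox1 −0.44 to 0.14, with the sexes combined Hnf4a −0.0046 to 0.22, Foxa1 −0.031 to 0.51, Onecut1 −0.37 to 0.20 and Nr5a2 −0.25 to 0.020, in the females minus males difference Foxa1 −0.37 to 0.28, Onecut1 −0.36 to 0.89 and Prox1 −0.47 to 0.11, between the wild type sexes Hnf4a −0.52 to 0.057, Cebpa −0.21 to 0.61, Foxa3 −0.089 to 0.32, Nr5a2 −0.24 to 0.20 and Prox1 −0.044 to 0.33, and between the KO sexes Foxa2 −0.16 to 0.24, Onecut1 −0.83 to 0.23 and Prox1 −0.34 to 0.24. None of these had passed the threshold. Onecut1 could not be tested with at least 10 counts in every library.

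No paired analysis was possible because each mouse has its own number and the groups share none. Depth limits Onecut1 and Prox1 most, with 7 to 53 and 11 to 28 tags per library.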
